A study of Mus musculus with 8 samples.

Results

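The 10 receptor tyrosine kinases Met, Mst1r, Axl, Mertk, Fgfr1, Fgfr2, Igf1r, Kit, Ddr1 and Ddr2 were read by gene name from a count table of 31894 genes, in which each had 1 entry. 9 of the 10 passed the filter on low counts, as did 13598 genes in all, and Mst1r did not. The table holds bulk mRNA libraries of tumor cells sorted from breast cancer brain metastases (BCBM), and the question was how the receptors differ between cells with high (E-cad HI) and low (E-cad LO) E-cadherin. Tumor pieces of the PyMT mouse mammary tumor model, with an E-cadherin reporter that carries mCFP, had been passaged through the brain before organoids were derived from them, and these were labelled with a histone joined to Dendra2 and injected intracranially. The labels give the strain as FVB, the genotype as wild type and the tissue as a brain metastasis for both groups, and no age. Live Dendra2-positive cells low in host tdTomato were divided by mCFP, and mice 57, 58, 67 and 70 each gave 1 E-cad HI and 1 E-cad LO library, so n = 4 per group. Libraries of E-cad HI cells held 14922074, 13006189, 13437544 and 11876177 counts in mice 57, 58, 67 and 70, and those of E-cad LO cells held 11325146, 9102781, 14313787 and 15769200. Positions are in GRCm38. Levels are given as normalized CPM, the usual depth-scaled count with TMM factors, and ratios within a mouse as log2 of normalized CPM plus 0.5.

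Receptor tyrosine kinases span the membrane, bind a ligand outside the cell and, once paired, phosphorylate each other and the docking proteins that lead to the Ras, PI3-kinase and phospholipase C pathways. In epithelia, Met and its relative Mst1r answer to scatter factors, Fgfr2 is known as the receptor form of epithelial cells and Fgfr1 as that of mesenchymal cells, and Ddr1 and Ddr2 bind collagen directly. Axl and Mertk bind Gas6, and Mertk also protein S, on exposed phosphatidylserine. In the brain both receptors are also made by glia and phagocytes.

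The gate was set on the mCFP reporter protein, and the paper checked the sorted cells by imaging and Cdh1 mRNA by RT-qPCR. Here the mRNA of the gate's own gene was read. Cdh1, which encodes E-cadherin, stood at 114, 132, 93.5 and 108 normalized CPM in E-cad HI cells of mice 57, 58, 67 and 70, and at 71.6, 181, 84.5 and 59.2 in E-cad LO cells. The E-cad LO library was thus lower than its partner in mice 57, 67 and 70, and in mouse 58 the mRNA went against the label. The 10 epithelial tumor markers, led by Krt18, summed to between 7524 and 10267 normalized CPM in E-cad HI libraries and between 5616 and 14107 in E-cad LO libraries, and each was detected in all 8.

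None of the receptors passed edgeR's test over the whole table. Without the mouse as a block, 0 of the 9 tested receptors were higher in E-cad LO (0.0% of all tested genes) and 0 were lower (0.0%) at an adjusted p under 0.05. At an unadjusted p under 0.05, the same test took 4 as higher, namely Axl, Mertk, Fgfr1 and Ddr2, where 8.16% of all tested genes were higher, and 0 as lower, where 5.81% were. With the mouse as a block, edgeR called 0 receptors higher (0.728% of all tested genes) and 0 lower (0.0%), and at an unadjusted p under 0.05 it took Axl, Mertk and Ddr2 as higher (12.3%) and Kit as lower (7.33%). DESeq2, the tool that the paper names for its own test, called more genes. Without the block it called 1 receptor, Mertk, higher (2.22% of the 13158 genes with an adjusted p) and 0 lower (0.426%). With the block it called Mertk and Ddr2 higher (7.57%) and Kit lower (1.63%).

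The order of the libraries was also read, without a test. All 4 E-cad LO libraries lay above all 4 E-cad HI libraries for 1 receptor, Mertk (3.9% of all tested genes), and below them for 0 (4.2%). Within mice, 3 receptors (Axl, Mertk and Ddr2) were higher in E-cad LO in all 4 mice, where 16.8% of all tested genes were, and 0 were lower in all 4, where 14.2% were. The median log2 fold change of the 9 tested receptors was 0.76, beside 0.06 over all tested genes, and with the block it was 0.66 beside 0.03. These medians describe the 9 that passed the filter and are no test.

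**Figure D1:**
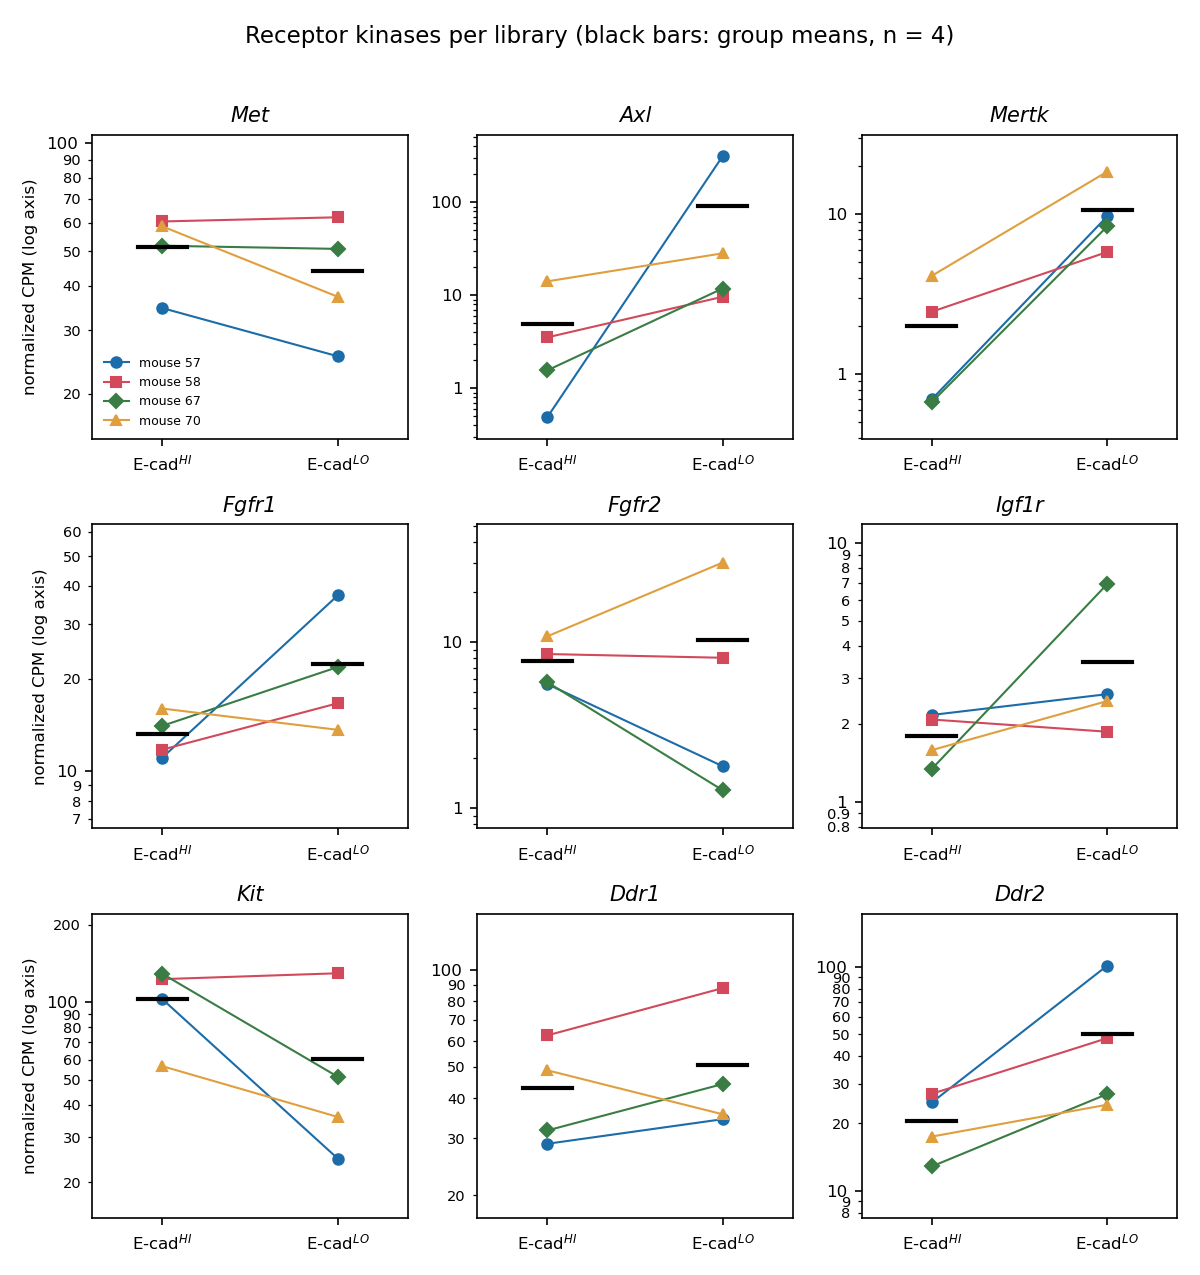
Normalized CPM (log axis, a different range in each panel) of the 9 tested receptors in the 8 libraries, with a line joining the E-cad HI and E-cad LO library of each mouse and black bars at the group means (n = 4). Mertk is the receptor whose groups do not overlap, and the highest Axl value is the 313 of the E-cad LO library from mouse 57.

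Mertk (chr2:128698956-128802894), a receptor that phagocytes use to take up dying cells, was low in every E-cad HI library. It stood at 0.697, 2.46, 0.669 and 4.13 normalized CPM in E-cad HI cells of mice 57, 58, 67 and 70, and at 9.73, 5.82, 8.41 and 18.5 in their E-cad LO cells. The lowest E-cad LO value, in mouse 58, was above the highest E-cad HI value, in mouse 70, and mouse 70 had the highest level in both groups. The means were 1.99 ± 1.65 (SD, n = 4) and 10.6 ± 5.51 normalized CPM, and the log2 fold change was 2.42 (SE 0.68, adjusted p = 0.269 in edgeR). It was 2.66 with the block (adjusted p = 0.0820), and DESeq2 gave an adjusted p of 0.0156 without and 4.92e-05 with the block. Without mouse 57, edgeR with the block called it as well (log2 fold change 2.25, adjusted p = 0.0440). The adjusted p ranged from 4.92e-05 to 0.680 over the 22 alternatives that gave a value.

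Axl (chr7:25757273-25788705), its relative, which in tumor cells is often studied with mesenchymal features and drug tolerance, had the widest spread. It stood at 0.488, 3.53, 1.56 and 14.1 normalized CPM in E-cad HI cells of mice 57, 58, 67 and 70, and at 313, 9.65, 11.8 and 28.3 in E-cad LO cells. Each mouse was higher in E-cad LO, by log2 ratios of 8.31, 1.33, 2.58 and 0.98, but the groups overlapped, since the E-cad HI library from mouse 70 exceeded the E-cad LO libraries of mice 58 and 67. The means were 4.93 ± 6.27 (SD, n = 4) and 90.7 ± 149 normalized CPM, of which the E-cad HI mean rests on mouse 70 and the E-cad LO mean on mouse 57. The log2 fold change was 4.22 (SE 1.38, adjusted p = 0.298 in edgeR), and 1.35 without mouse 57 (adjusted p = 0.692). With the block it was 2.91 (adjusted p = 0.242), and 1.695 with the block and without mouse 57 (adjusted p = 0.0527). DESeq2 gave Axl no p without the block and an adjusted p of 0.149 with it, and the adjusted p ranged from 0.0527 to 0.692 over the alternatives that gave one.

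The microglia and fibroblast marker sums given here were, like both receptors, higher in E-cad LO in each mouse. Among E-cad LO libraries the microglia sum was lowest in mouse 57, where Axl was highest. The fibroblast sum was highest in mouse 57, while Mertk was highest in mouse 70. All 12 microglia and macrophage markers were tested and all 12 were higher in E-cad LO in all 4 mice, of which edgeR called 0 without the block (7 at an unadjusted p under 0.05) and 4 with it, and DESeq2 called 5 and 12. Of all tested genes, 16.8% were higher in all 4 mice, edgeR took 8.16% as higher at an unadjusted p under 0.05 and called 0.728% with the block, and DESeq2 called 2.22% and, with the block, 7.57%, and these shares stand beside the marker counts that follow as well. They summed to 36.2, 86.3, 121 and 270 normalized CPM in E-cad HI cells of mice 57, 58, 67 and 70, and to 157, 196, 723 and 982 in E-cad LO cells, and no marker of the list was at 0 in all libraries. Mertk too was highest in mouse 70 in both groups, and the E-cad LO sums of microglia markers lay below the E-cad HI sum of mouse 70 in mice 57 and 58. In bulk samples, fewer cells of a type and less RNA per cell cannot be told apart, and the part of other cells in the Mertk and Axl values was not tested. Mitochondrial genes took 1.75%, 4.07%, 1.84% and 4.70% of all counts in E-cad HI cells of mice 57, 58, 67 and 70, and 1.885%, 5.32%, 4.61% and 7.16% in E-cad LO cells. This share too was higher in E-cad LO in each mouse and highest in mouse 70 in both groups, and its part in the Mertk and Axl values was not tested. The 10 fibroblast and mural markers, 8 of them tested, summed to 9.41, 17.7, 9.96 and 66.8 normalized CPM in the E-cad HI libraries and to 1202, 27.3, 63.5 and 192 in the E-cad LO libraries. The library with the highest Axl, E-cad LO of mouse 57, thus also had the highest sum of these markers, led by Col1a1 at 497 normalized CPM. None of the 10 was at 0 in all libraries, and 3 of the 8 were higher in all 4 mice. EdgeR called 0 of the 8 without the block (5 higher at an unadjusted p under 0.05) and 0 with it. DESeq2 called 0 without the block, where it gave Col1a1, Col1a2 and Col3a1 no p, and 2 higher with it.

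Gas6, a ligand of Axl and Mertk, and Pros1, a ligand of Mertk, were abundant. Gas6, which binds Axl and Mertk, stood at 234, 179, 234 and 172 normalized CPM in E-cad HI cells of mice 57, 58, 67 and 70, and at 73.4, 214, 134 and 99.7 in E-cad LO cells. It was lower in E-cad LO in 3 of 4 mice and higher in mouse 58, and its log2 fold change was -0.65 (SE 0.31, adjusted p = 0.372 in edgeR), which was -0.40 without mouse 57 and -0.999 without the E-cad LO library from mouse 58. Pros1, which encodes protein S, was likewise lower in 3 of 4 mice, with a log2 fold change of -0.48 (SE 0.29, adjusted p = 0.454) that was -0.25 without mouse 57, the exception being mouse 70. Tyro3, the remaining receptor of the family, overlapped between groups, with 11.1 to 15.7 normalized CPM in E-cad HI and 5.99 to 20.1 in E-cad LO libraries.

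Of the collagen receptors, Ddr2 (chr1:169972307-170110762), which binds fibrillar collagens and is known from mesenchymal cells, was higher in E-cad LO in all 4 mice. It stood at 24.8, 27.1, 12.9 and 17.5 normalized CPM in E-cad HI cells of mice 57, 58, 67 and 70, and at 101, 48.0, 27.1 and 24.3 in E-cad LO cells. The groups overlapped, since the E-cad LO libraries of mice 67 and 70 lay within the E-cad HI range, and the E-cad LO library from mouse 57 was the highest. The means were 20.6 ± 6.58 (SD, n = 4) and 50.2 ± 35.7 normalized CPM, with a log2 fold change of 1.29 (SE 0.47, adjusted p = 0.305 in edgeR). The adjusted p was 0.124 in edgeR with the block and 0.00654 in DESeq2 with the block, and it ranged from 0.00654 to 0.681 over all 23 alternatives. Without mouse 57 the log2 fold change was 0.77. The fibroblast and mural sum was highest in the same E-cad LO library from mouse 57, and its part in the Ddr2 value was not tested. An antisense gene shares 90 exonic bases with Ddr2 and had at most 25 counts in a library.

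Ddr1 (chr17:35681567-35704621), the collagen receptor of epithelial cells, did not pass in any fit. It stood at 28.9, 62.6, 31.7 and 48.8 normalized CPM in E-cad HI cells of mice 57, 58, 67 and 70, and at 34.4, 87.8, 44.2 and 35.6 in E-cad LO cells. The groups overlapped, and both libraries of mouse 58 were the highest of their group. The log2 fold change was 0.23 (SE 0.36, adjusted p = 0.764 in edgeR) and turned to -0.16 without the E-cad LO library from mouse 58. Across the 8 libraries Ddr1 moved with Gm42418, a gene model that overlaps ribosomal RNA sequence, which took 2.23%, 7.67%, 2.29% and 3.71% of all counts in E-cad HI cells of mice 57, 58, 67 and 70 and 3.0%, 14.4%, 3.93% and 2.35% in E-cad LO cells. Pearson's r was 0.983 (n = 8), and the part of library composition in the Ddr1 values was not tested.

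The ratio of Ddr2 to Ddr1 sets a mesenchymal beside an epithelial receptor on a scale per exonic length. Its log2 value was -1.17, -2.15, -2.23 and -2.41 in E-cad HI cells of mice 57, 58, 67 and 70, and 0.59, -1.82, -1.65 and -1.50 in the E-cad LO libraries. It was higher in E-cad LO in 4 of 4 mice, while the groups overlapped through the E-cad HI library from mouse 57. Ddr1 was the more abundant per length in 7 of the 8 libraries, and Ddr2 in the E-cad LO library from mouse 57. The difference of the means was 0.89 (SD of the differences within a mouse 0.62, n = 4), with p = 0.200 in a two-sided exact permutation test and 0.343 after adjustment over the 2 ratios tested. The exact paired sign-flip test gave p = 0.125, which is the smallest that 4 mice allow.

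Of the fibroblast growth factor receptors, Fgfr1 (chr8:25513654-25575718) was higher in E-cad LO in mice 57, 58 and 67 and lower in mouse 70. It stood at 11.1, 11.8, 14.05 and 16.0 normalized CPM in E-cad HI cells of mice 57, 58, 67 and 70, and at 37.3, 16.6, 21.8 and 13.6 in E-cad LO cells. The E-cad LO value of mouse 70 lay within the E-cad HI range, and the other 3 lay above it. The means were 13.2 ± 2.24 (SD, n = 4) and 22.3 ± 10.5 normalized CPM, with a log2 fold change of 0.76 (SE 0.33, adjusted p = 0.356 in edgeR) that was 0.30 without mouse 57. With the block it was 0.66 (adjusted p = 0.312). The highest value was again in the E-cad LO library from mouse 57, where the fibroblast and mural sum was 1202 normalized CPM, beside 27.3 to 192 in the other E-cad LO libraries, and the part of these markers in the Fgfr1 value was not tested.

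Fgfr2 did not keep 1 direction across the mice. It stood at 5.58, 8.45, 5.72 and 10.8 normalized CPM in E-cad HI cells of mice 57, 58, 67 and 70, and at 1.78, 8.03, 1.28 and 30.1 in E-cad LO cells. It was thus lower in E-cad LO in mice 57, 58 and 67, with log2 ratios of -1.41, -0.07 and -1.81, and higher in mouse 70, with 1.43, and the E-cad LO values lay on both sides of the E-cad HI range. The log2 fold change was 0.43 (SE 0.87, adjusted p = 0.821 in edgeR), -0.56 with the block (adjusted p = 0.640), and -1.05 without the E-cad LO library from mouse 70. That library also had the highest sums of the astrocyte and oligodendrocyte lineage markers. The 10 astrocyte markers, all tested, summed to 1147, 1165, 1316 and 3666 normalized CPM in the E-cad HI libraries. They summed to 727, 1488, 2011 and 10235 in the E-cad LO libraries. Aldoc alone made up 1005, 689, 1026 and 2233 of the E-cad HI sums and 124, 700, 1132 and 4902.5 of the E-cad LO sums. In mouse 57 the sum was lower in E-cad LO, while the median log2 ratio of the 10 markers was 1.59. The 10 oligodendrocyte lineage markers, all tested and led by Mbp, summed to 607, 1699, 1015 and 8667 and to 1340, 3863, 4344 and 34425 in the same order. None of these 20 entries was at 0 in all libraries. Of the astrocyte and oligodendrocyte lineage markers, 6 and 5 were higher in all 4 mice. Lower in all 4 were 0 and 1, where 14.2% of all tested genes were. Without the block, edgeR called 0 and 0 of these markers higher, and DESeq2 1 and 0. With the block, edgeR called 3 and 2 higher, and DESeq2 7 and 6. The part of these markers in the Fgfr2 values was not tested. The annotated Fgfr2 gene (chr7:130162451-133123350) holds 1 long transcript whose exons share 314 bases with Ctbp2 on the same strand, so some of its counts may be shared, and gene counts do not tell the epithelial from the mesenchymal splice form of either receptor.

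The log2 ratio of Fgfr1 to Fgfr2 per exonic length was 1.0, 0.52, 1.29 and 0.61 in E-cad HI cells of mice 57, 58, 67 and 70, and 4.11, 1.07, 3.71 and -1.05 in the E-cad LO libraries. Fgfr1 was the more abundant in all libraries but the E-cad LO library from mouse 70, and the ratio was higher in E-cad LO in 3 of 4 mice. The difference of the means was 1.11 (SD of the differences within a mouse 2.14, n = 4), with p = 0.343 in a two-sided exact permutation test, which could have gone down to 0.0286, and 0.343 after adjustment over the 2 ratios. The exact paired sign-flip test gave p = 0.375. Without mouse 57 the difference was 0.44, and without mouse 70 it was 2.03.

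**Figure D2:**
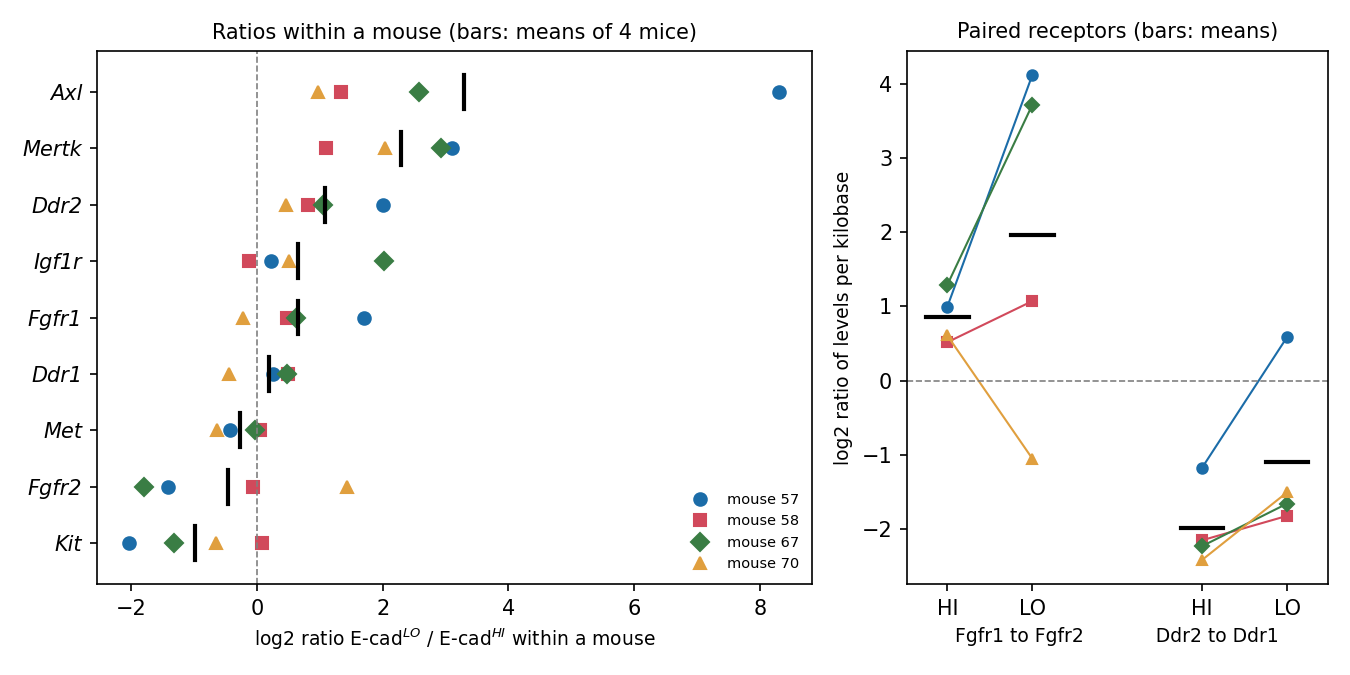
Left, log2 of the E-cad LO over the E-cad HI level within each mouse for the 9 tested receptors, with black bars at the means of 4 mice and a dashed line at 0. Right, log2 ratio of Fgfr1 to Fgfr2 and of Ddr2 to Ddr1 per kilobase of exons in each library, with bars at the group means. Axl, Mertk and Ddr2 lie above 0 in 4 of 4 mice, and the ratio of Ddr2 to Ddr1 is higher in E-cad LO in 4 of 4 mice.

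Met (chr6:17463800-17573980), the receptor for hepatocyte growth factor, differed little between the groups. It stood at 34.6, 60.5, 51.7 and 58.6 normalized CPM in E-cad HI cells of mice 57, 58, 67 and 70, and at 25.4, 62.1, 50.7 and 37.2 in E-cad LO cells. The groups overlapped, and mouse 57 was the lowest in both. The means were 51.4 ± 11.8 (SD, n = 4) and 43.9 ± 16.0 normalized CPM, with a log2 fold change of -0.23 (SE 0.29, adjusted p = 0.709 in edgeR) that stayed between -0.43 and -0.06 over 23 alternatives. Its relative Mst1r (chr9:107906873-107920383), the receptor for macrophage-stimulating protein, had 0, 12, 0 and 5 counts in E-cad HI cells of mice 57, 58, 67 and 70 and 0, 0, 14 and 13 in the E-cad LO libraries. A count of 0 allows up to 3 counts, which is 0.201 CPM in the E-cad HI library from mouse 57 and 0.330 CPM in the E-cad LO library from mouse 58, counting error only. The mice went opposite ways, with counts in E-cad HI alone in mouse 58 and in E-cad LO alone in mouse 67, and without the filter edgeR gave a log2 fold change of 0.44 (adjusted p = 0.912).

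The ligands of Met and Mst1r, Hgf and Mst1, did not pass the filter (Hgf was highest, at 6.17 normalized CPM, in the E-cad LO library from mouse 57), while membrane proteases that can activate hepatocyte growth factor did. Hpn, which encodes hepsin, stood at 89.9, 78.9, 77.1 and 90.3 normalized CPM in E-cad HI cells of mice 57, 58, 67 and 70, and at 19.5, 76.0, 47.6 and 34.2 in E-cad LO cells. All 4 E-cad LO libraries lay below all 4 E-cad HI libraries, by a small gap in mouse 58, and the log2 fold change was -0.93 (SE 0.35, adjusted p = 0.314 in edgeR). DESeq2 with the block called it lower (adjusted p = 0.0255). St14, which encodes matriptase, overlapped, with 113 to 186 normalized CPM in E-cad HI and 86.5 to 234 in E-cad LO libraries. Spint2, an inhibitor of both proteases, was lower in E-cad LO in 3 of 4 mice, with a log2 fold change of -0.58 (SE 0.25, adjusted p = 0.346 in edgeR) that was -0.34 without mouse 57 and -0.88 without mouse 58.

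Kit (chr5:75574916-75656722), the receptor for stem cell factor, had the highest mean of the 10 per length in E-cad HI cells, though in mouse 70 Ddr1 and Met stood above it. It stood at 103, 123, 129 and 56.5 normalized CPM in E-cad HI cells of mice 57, 58, 67 and 70, and at 24.7, 130, 51.4 and 35.9 in E-cad LO cells. It was lower in E-cad LO in mice 57, 67 and 70, while both libraries of mouse 58 were alike and high, so that the groups overlapped. The means were 103 ± 32.9 (SD, n = 4) and 60.5 ± 47.5 normalized CPM, with a log2 fold change of -0.77 (SE 0.49, adjusted p = 0.470 in edgeR). The adjusted p was 0.187 in edgeR with the block and 0.0437 in DESeq2 with the block, and it ranged from 0.0437 to 0.785 over all 23 alternatives. Without the E-cad LO library from mouse 58 the log2 fold change was -1.46.

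Its ligand Kitl overlapped between the groups, with 54.4 to 93.4 normalized CPM in E-cad HI and 28.0 to 87.8 in E-cad LO libraries and a log2 fold change of -0.16 (SE 0.32, adjusted p = 0.827 in edgeR). Since mast cells also make Kit, 8 mast cell markers were read. They summed to 2.44, 3.15, 1.34 and 2.46 normalized CPM in E-cad HI cells of mice 57, 58, 67 and 70, and to 29.2, 7.10, 5.79 and 6.08 in E-cad LO cells. Of these markers 7 were in the table and 1, Hdc, was tested, which edgeR did not call (adjusted p = 0.251, and 0.0854 with the block) and DESeq2 called higher with and without the block. Hdc made up 26.6 of the 29.2 in the E-cad LO library from mouse 57. The marker sums were higher in E-cad LO in each mouse, while Kit was lower in 3 of 4 mice. Their part in the Kit values was not tested.

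Igf1r (chr7:67952827-68233668), the receptor for insulin-like growth factors, was low throughout. It stood at 2.16, 2.07, 1.34 and 1.58 normalized CPM in E-cad HI cells of mice 57, 58, 67 and 70, and at 2.60, 1.86, 6.93 and 2.45 in E-cad LO cells. The E-cad LO library from mouse 67 stood apart, and the E-cad LO library from mouse 58 was below its partner. The log2 fold change was 0.95 (SE 0.54, adjusted p = 0.435 in edgeR) and 0.36 without that library from mouse 67. Its ligands Igf1 and Igf2 did not pass the filter. Igf1 stood at 0.139, 0.154, 0.0743 and 0.527 normalized CPM in E-cad HI cells of mice 57, 58, 67 and 70, and at 68.4, 0.233, 1.82 and 0.769 in E-cad LO cells, so that 1 library, E-cad LO of mouse 57, held nearly all of it. Of the binding proteins that hold these ligands, Igfbp5 stood at 1282, 905, 1632 and 1261 normalized CPM in E-cad HI cells of mice 57, 58, 67 and 70, and at 131, 654, 894 and 506 in E-cad LO cells. All 4 E-cad LO libraries lay below all 4 E-cad HI libraries, with a log2 fold change of -1.22 (SE 0.48, adjusted p = 0.321 in edgeR), and DESeq2 with the block called it lower (adjusted p = 0.00528).

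On the scale of normalized CPM per kilobase of exons, the means in E-cad HI libraries ran from Kit (11.5 ± 3.69, SD, n = 4) through Ddr1 (9.01 ± 3.30), Met (6.69 ± 1.53), Ddr2 (2.22 ± 0.711), Fgfr1 (1.34 ± 0.227), Axl (0.980 ± 1.24), Fgfr2 (0.740 ± 0.241), Mertk (0.458 ± 0.381) and Igf1r (0.107 ± 0.0235) to Mst1r (0.0680 ± 0.0878). Neighbours in this order had overlapping ranges over the 4 libraries, except Met above Ddr2 and Mertk above Igf1r. In E-cad LO libraries the order of the means was Axl (18.0 ± 29.5), Ddr1 (10.6 ± 5.29), Kit (6.79 ± 5.33), Met (5.71 ± 2.08), Ddr2 (5.42 ± 3.86), Mertk (2.45 ± 1.27), Fgfr1 (2.26 ± 1.07), Fgfr2 (0.996 ± 1.31), Igf1r (0.206 ± 0.139) and Mst1r (0.0924 ± 0.107). There each pair of neighbours overlapped, and the first place of Axl came from the 62.2 per kilobase of mouse 57, beside 1.92 to 5.62 in the other mice.

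The remaining marker lists are given for the cells that the gate could hold. The 10 neuron markers, all tested and led by Snap25, summed to 4.60, 62.6, 22.2 and 98.6 normalized CPM in E-cad HI cells of mice 57, 58, 67 and 70, and to 32.2, 155, 137 and 392 in E-cad LO cells. Their sum was higher in E-cad LO in each mouse, with overlapping groups. Of the neuron markers, edgeR called 0 without the block (2 at an unadjusted p under 0.05) and 1 with it, DESeq2 0 and 7. The 10 endothelial markers, of which 7 were tested and Flt1 led, summed to 42.0, 43.3, 77.1 and 72.1 in E-cad HI and to 60.3, 77.6, 98.7 and 110 in E-cad LO cells. This sum too was higher in E-cad LO in each mouse, with overlapping groups. EdgeR called 0 of the endothelial markers with and without the block (1 at an unadjusted p under 0.05), and DESeq2 0, with no p for 1 of them, and 1 with the block. The 8 neutrophil markers, 2 of them tested, summed to between 9.06 and 26.9 normalized CPM over the 8 libraries, and the 10 lymphocyte markers, none of which passed the filter, to between 0 and 14.7.

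Of 8 other receptors, of the same families or, as for Igf2r, for the same ligands, 7 were tested. EdgeR called 0 higher and 0 lower both without and with the block. DESeq2 without the block called 0 and gave Flt3, named after its values were seen, no adjusted p. The median log2 fold change was 0.06, the same as over all tested genes. Csf1r, a relative of Kit and also 1 of the 12 microglia and macrophage markers, was the member with an unadjusted p under 0.05 without the block, and DESeq2 with the block called it higher (adjusted p = 3.05e-05), where the shares over all tested genes were 8.16% and 7.57%. It stood at 2.23, 10.8, 7.36 and 19.2 normalized CPM in E-cad HI cells of mice 57, 58, 67 and 70, and at 9.88, 18.3, 47.9 and 59.4 in E-cad LO cells. Each mouse was higher in E-cad LO, though the groups overlapped. Its log2 fold change was 1.78 (SE 0.70, adjusted p = 0.321 in edgeR). Igf2r, which clears insulin-like growth factor from the surface, was lower in 4 of 4 mice with overlapping groups (log2 fold change -0.39, SE 0.18, adjusted p = 0.376 in edgeR). Fgfr3, Fgfrl1 and Insr overlapped between the groups.

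Of 25 ligands and ligand activators, 13 were tested, with a median log2 fold change of 0.70 beside 0.06 over all tested genes. EdgeR called 0 in either direction without and with the block, DESeq2 without the block called 0 but gave no p for Col1a1, Col1a2 and Col3a1 and no adjusted p for Fgf7, and DESeq2 with the block called Fgf13 and Col4a2 higher and Hpn lower. Fgf13 belongs to the growth factor family by sequence and is known as a protein inside the cell, not as a secreted ligand of these receptors. At an unadjusted p under 0.05, edgeR without the block took Col1a1, Col1a2, Col3a1 and Col4a2 as higher and Hpn as lower. Over all tested genes these shares were 8.16% and 5.81%, and DESeq2 with the block called 7.57% higher and 1.63% lower. Fgf7, Fgf13, Col4a2, Col1a2 and Col3a1 were named here after their values were seen. Col1a1, a collagen that binds Ddr1 and Ddr2, stood at 3.76, 2.54, 2.08 and 1.405 normalized CPM in E-cad HI cells of mice 57, 58, 67 and 70, and at 497, 2.68, 3.77 and 8.53 in E-cad LO cells. Its log2 fold change of 5.70 (SE 1.74, adjusted p = 0.282 in edgeR) came down to 1.27 without mouse 57. Col1a1, Col1a2 and Col3a1 belong to the fibroblast and mural markers as well.

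Of 20 ligand inhibitors, binding proteins and co-receptors, 17 were tested, with a median log2 fold change of 0.09. EdgeR called 0 without and with the block, while DESeq2 called Igfbp7 higher without the block, where it gave Gpc1 no p, and Igfbp7 higher and Igfbp5 lower with it. At an unadjusted p under 0.05, edgeR without the block took Igfbp2, Igfbp7 and Gpc1 as higher and Igfbp5 and Spint2 as lower, of which the first 3 were named after their values were seen. Over all tested genes edgeR took 8.16% as higher and 5.81% as lower, DESeq2 called 2.22% higher, and with the block it called 7.57% higher and 1.63% lower. Igfbp7 stood at 0.0697, 0.384, 0.520 and 1.93 normalized CPM in E-cad HI cells of mice 57, 58, 67 and 70, and at 23.7, 1.16, 3.97 and 2.87 in E-cad LO cells. It was higher in 4 of 4 mice with overlapping groups, and highest again in the E-cad LO library from mouse 57. The syndecan Sdc4 had the highest mean of the list over both groups together. It had 764 to 1272 normalized CPM in E-cad HI and 690 to 1248 in E-cad LO libraries. In E-cad HI libraries alone the mean of Igfbp5 was higher, at 1270 beside 990 normalized CPM for Sdc4. Cd44 and the sheddases Adam10 and Adam17 overlapped too, with Adam10 lower in 4 of 4 mice.

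Of 18 adaptors and docking proteins, 17 were tested, with a median log2 fold change of 0.27. EdgeR called 0 without and with the block, DESeq2 called 0 without it, and DESeq2 with the block called Gab2 higher (adjusted p = 0.0288). At an unadjusted p under 0.05, edgeR without the block took Gab2 and Cblb as higher, both named after their values were seen. Of all tested genes, 8.16% were taken as higher in this way, DESeq2 with the block called 7.57% higher, and 3.9% had all E-cad LO above all E-cad HI libraries. Gab2, a docking protein, stood at 15.5, 18.6, 10.1 and 13.3 normalized CPM in E-cad HI cells of mice 57, 58, 67 and 70, and at 20.1, 28.8, 19.6 and 32.6 in E-cad LO cells. The groups did not overlap, as was also the case for the ubiquitin ligase Cblb, which lay between 5.65 and 10.5 normalized CPM in E-cad HI cells and between 12.6 and 24.9 in E-cad LO cells. Pik3r1, the regulatory subunit of PI3-kinase, was the most abundant, with a log2 fold change of -0.52 (SE 0.32, adjusted p = 0.460 in edgeR) that was -0.31 without the E-cad LO library from mouse 57 and -0.30 without both of its libraries. The phosphatase Ptpn11 was higher in 4 of 4 mice with overlapping groups (0.41, SE 0.20, adjusted p = 0.386). The groups also overlapped for Shc1 and Crk, which were lower in 4 of 4 mice, for Gab1, which was higher in 4 of 4, and for Crkl, which was higher in 3 of 4.

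The genes whose log2 levels followed a receptor most closely over the 8 libraries are given as a description, since the libraries share mice and groups. For Axl they were Dclk1 (Pearson's r = 0.997, n = 8), Vcam1 (0.995) and Snx24 (0.986). Vcam1 ran like Axl, with 0.488, 3.0, 1.04 and 12.1 normalized CPM in the E-cad HI libraries and 600, 8.26, 14.4 and 44.7 in the E-cad LO libraries of mice 57, 58, 67 and 70. For Mertk they were Mir9-3hg (0.988), Amdhd2 (0.983) and Cd37 (0.971), and for Ddr2 they were Nfkb2 (0.987), Kank2 (0.983) and Osgin1 (0.975). Fgfr1 was followed by Postn (0.984), Snx30 (0.983) and Stx11 (0.980), of which Postn, a matrix protein, had 475 normalized CPM in the E-cad LO library from mouse 57 and at most 14.9 elsewhere. Fgfr2 was followed by Srxn1 (0.994), 2810402E24Rik (0.993) and Bbox1 (0.975), Met by Notch3 (0.971), Nos1ap (0.964) and Pcsk6 (0.961), and Kit by Kank4 (0.974), Epb41l4a (0.974) and Xdh (0.971). Epb41l4a had 396 to 609 normalized CPM in E-cad HI and 186 to 506 in E-cad LO libraries. Igf1r was followed by Crnde (0.975), Phf7 (0.942) and Hcar2 (0.940), and Ddr1, after Gm42418, by Scaf1 (0.970) and Zc3h7b (0.967).

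The promoters of the 3 receptors that were higher in E-cad LO in all 4 mice are shown beside that of Met, which differed little between the groups. RefSeq promoter windows of 300 bases around the gene starts that RefSeq gives (GRCm38.p6) were found for 9 of the 10 receptors, 14 windows in all, and were searched on both strands for CACCTG, the E-box form bound by the Snail and Zeb repressors, and for TGANTCA, a loose form of the AP-1 motif. Those of Ddr2 and Fgfr2, 1 of the windows of Mst1r and 2 of those of Ddr1, among them the one with both motifs, lie well inside the gene as placed by GENCODE, away from its outermost start. Both motifs were chosen after the expression values were seen. CACCTG is in 20.2% and TGANTCA in 7.81% of the 32851 windows of all genes. Of the 14 receptor windows 2 held both, that of Met and 1 of the 4 of Ddr1, and the others held neither. The window of Fgfr2 held 4 CpG dinucleotides, those of Mst1r 8 and 9, and that of Igf1r 48. Those of Kit held 20 and 21, and those of Ddr1 held 9, 7, 10 and 39. The windows of Axl, Mertk and Ddr2 held 6, 14 and 2 CpG dinucleotides and that of Met held 34. They read as follows on the strand of the gene, 5′ to 3′, with the motifs in capitals, at chr7:25788684-25788983 (minus strand) for Axl, chr2:128698665-128698964 (plus) for Mertk, chr1:170088895-170089194 (minus) for Ddr2 and chr6:17463707-17464006 (plus) for Met.
Axl: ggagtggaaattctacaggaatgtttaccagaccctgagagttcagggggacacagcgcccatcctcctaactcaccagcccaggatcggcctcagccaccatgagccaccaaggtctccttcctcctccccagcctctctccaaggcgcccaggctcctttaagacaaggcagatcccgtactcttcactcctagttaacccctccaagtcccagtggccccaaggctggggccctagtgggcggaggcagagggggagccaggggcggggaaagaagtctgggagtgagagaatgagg
Mertk: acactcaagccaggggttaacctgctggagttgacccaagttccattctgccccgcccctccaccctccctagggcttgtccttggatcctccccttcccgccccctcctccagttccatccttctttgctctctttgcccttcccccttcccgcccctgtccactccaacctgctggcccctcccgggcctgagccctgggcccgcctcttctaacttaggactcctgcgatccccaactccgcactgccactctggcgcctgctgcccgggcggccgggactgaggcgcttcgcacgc
Ddr2: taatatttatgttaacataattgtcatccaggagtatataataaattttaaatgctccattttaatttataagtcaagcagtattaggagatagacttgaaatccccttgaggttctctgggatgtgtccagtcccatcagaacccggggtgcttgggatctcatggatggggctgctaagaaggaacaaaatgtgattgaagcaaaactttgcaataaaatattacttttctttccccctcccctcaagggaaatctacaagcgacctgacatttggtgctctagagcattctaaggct
Met: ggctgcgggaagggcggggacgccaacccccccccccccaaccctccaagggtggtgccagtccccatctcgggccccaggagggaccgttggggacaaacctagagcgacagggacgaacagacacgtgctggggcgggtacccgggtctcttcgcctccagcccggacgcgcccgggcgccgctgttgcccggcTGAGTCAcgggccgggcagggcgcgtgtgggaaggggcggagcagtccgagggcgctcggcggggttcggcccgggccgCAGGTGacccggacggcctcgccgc
A match is a description of the letters, and binding was not tested.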

How the data were processed

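Single reads of mRNA libraries were mapped by the authors with Hisat 2.1.0 to GRCm38, and the deposited values are whole-number counts per gene without normalization. The paper names Icount for the counting and the submitters' processing notes name HTSeq. Use of strand and the treatment of reads that match several genes are not stated, so overlapping and antisense genes may share counts. All 8 count columns were used, and the 365 of 32259 entries without an identifier (0.0636% to 0.0954% of counts) were left out.

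Counts were tested with edgeR 4.0.16 (R 4.3.3; TMM, filterByExpr by group, quasi-likelihood test) over 13598 genes, with Benjamini-Hochberg adjustment and a threshold of 0.05. DESeq2 1.42.0 was run on the same genes. The edgeR steps were tested on simulated data. Standard errors are the log2 fold change over the square root of the F statistic. Exonic lengths come from GENCODE M21. Tables, exact tests and figures were made with Python 3.11, pandas 2.3, scipy 1.17 and matplotlib 3.10.

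The pairing comes from the mouse number in the labels. Deviations from the group means correlated within mice by 0.275 to 0.698 (mean 0.409, 4 pairs) and between mice by at most 0.153. Centring each group on its own mean lowers the values between mice, so the contrast is partly built in. The main fit has no block, since the paper's methods state none, and the blocked fit stands beside it. The paper used DESeq2 for its differential test, which is given here as an alternative to edgeR. No libraries of 1 group were as alike as sampling noise would make them (smallest chi-square per degree of freedom 29.2).

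The receptors and lists were chosen with earlier results of these data known. The rule names all 10 receptors and the 3 genes nearest to each tested receptor by Pearson's r. It names at most 6 genes per list by mean normalized CPM, since no list member passed edgeR. Hgf, Mst1, Igf1 and Igf2 fall outside these 6 and are given as ligands of the receptors. Alternatives were DESeq2, its size factors within edgeR, no filter, at least 10 counts in every library, the block, a robust fit and each mouse or library left out, and for the ratios other pseudocounts (0.1 and 2 in place of 0.5) and library totals without TMM.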

Additional observations from a re-analysis of the deposited data

Results flagged for a closer look

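Of 35 groups of 4 values examined, over the receptors, their ratios within a mouse and the 2 receptor ratios, 3 held a value far from the other 3. Chance puts about 1 in 20 groups in this class, which is 1.75 of 35. Axl stood at 313 normalized CPM in the E-cad LO library of mouse 57, beside 9.65 to 28.3 in the other E-cad LO libraries. Igf1r stood at 6.93 normalized CPM in the E-cad LO library of mouse 67, beside 1.86 to 2.60 in the others. The log2 ratio of Ddr2 to Ddr1 per exonic length was 0.59 in the E-cad LO library of mouse 57, beside -1.82 to -1.50 in the others. So 2 of the 3 values lie in the same library.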

How the results depend on the processing

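Met, Axl, Mertk, Fgfr1, Igf1r, Kit and Ddr2 kept their direction under every alternative that gave a value, and Fgfr2 and Ddr1 did not. The log2 fold change of Fgfr2 was -0.56 with the replicate block and -0.57 in DESeq2 with the block, and ran from -1.27 to 0.80 with mice or libraries left out. That of Ddr1 ran from -0.16 to 0.48 in the same way. That of Kitl ran from -0.38 to 0.0606, being 0.02 without the E-cad HI library from mouse 67 and highest without the E-cad LO library from mouse 57. DESeq2 gave Axl no p without the block.

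Genes higher in E-cad LO numbered 292 in DESeq2, 23 with no filter, 3 with at least 10 counts in every library, 99 with the replicate block and 1029 in DESeq2 with the block, beside 0 in edgeR. With mice or libraries left out they numbered 0 to 425, with 425 from the block without mouse 57 and 13 without the E-cad LO library from mouse 70. Genes lower in E-cad LO numbered 56 in DESeq2 and 222 in DESeq2 with the block, and 0 to 24 with mice or libraries left out. The block changed no call of a receptor in edgeR with all mice.

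The difference in the Fgfr1 to Fgfr2 ratio ran from 0.44 to 2.03 and that in the Ddr2 to Ddr1 ratio from 0.60 to 1.08 over all alternatives, none past the threshold. With 3 mice the exact test cannot go below 0.1. The causes were not tested. Mst1r had at most 14 counts in a library and did not pass the filter.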
